A study of Mus musculus with 6 samples.

Results

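The genes of the neurotransmitter receptors were measured in mouse epiblast stem cells (EpiSCs) in an epiblastic and a neural plate condition. A gene was taken when a probe's RefSeq mRNA accession led to the symbol of an AMPA, kainate, NMDA or metabotropic glutamate receptor, a GABA-A alpha, beta, gamma, delta or rho subunit, a GABA-B receptor, a nicotinic alpha or beta subunit, a muscarinic receptor, a glycine alpha subunit or a serotonin receptor. This gave 78 genes with 106 probes, of 19576 genes and 25918 probes named in the same way, and every gene with such a symbol in the reference table had a probe. EpiSCs are pluripotent cells of the postimplantation epiblast, here of the 129/Sv strain and without any stated genetic change. The EpiSC group stayed in the maintenance condition, NPC1 spent 1 day and NPC2 spent 2 days in a neural plate developmental condition. Each group held 2 cultures, A and B, that came from the same seed culture, and the RNA of each was labelled with Cy3 and hybridised to an array of its own. The p-values therefore measure only the spread between these cultures, which may be technical.

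Fast transmission in the nervous system runs through receptors that are ion channels built from several subunits: AMPA, kainate and NMDA receptors open to glutamate, GABA-A and glycine receptors pass chloride, and nicotinic receptors and the Htr3 serotonin receptor pass cations. Metabotropic glutamate, GABA-B, muscarinic and the other serotonin receptors act through G proteins instead. Most of these channels need partner subunits to reach the cell surface, so the RNA of a single subunit says nothing about a working receptor. In bulk cultures, fewer cells of a type and less RNA per cell cannot be told apart.

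The promoters of 4 receptor genes are printed here because these genes hold the largest falls and rises or, for Chrnb2, encode the partner of such a gene: Grm6 and Chrna9 were lower in NPC2 than in EpiSC, and Chrna4 and Chrnb2, whose products join in the main nicotinic receptor of the brain, were higher. Each is the 250 bases before the start of the gene, from RefSeq on build GRCm38.p6, read 5′ to 3′ on the gene's own strand. They lie at chr11:50850435-50850684 on the plus strand (Grm6), chr5:65966874-65967123 on the plus strand (Chrna9), chr2:181039178-181039427 on the minus strand (Chrna4) and chr3:89764633-89764882 on the minus strand (Chrnb2). Capitals mark matches, on either strand, to 4 motifs: a POU octamer core (ATGCAAA), a SOX core (ACAAAG), a GC box (GGGCGG) and the left part of the REST site (TTCAGCACC).
Grm6: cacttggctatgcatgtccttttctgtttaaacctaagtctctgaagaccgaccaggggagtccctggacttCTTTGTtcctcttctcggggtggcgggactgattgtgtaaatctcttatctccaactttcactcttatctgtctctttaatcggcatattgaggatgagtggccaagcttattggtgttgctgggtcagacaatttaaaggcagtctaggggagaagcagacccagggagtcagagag
Chrna9: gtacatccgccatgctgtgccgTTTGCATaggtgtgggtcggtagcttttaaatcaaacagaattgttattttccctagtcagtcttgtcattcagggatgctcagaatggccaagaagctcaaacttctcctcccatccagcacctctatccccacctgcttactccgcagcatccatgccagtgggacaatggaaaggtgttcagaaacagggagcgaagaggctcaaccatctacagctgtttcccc
Chrna4: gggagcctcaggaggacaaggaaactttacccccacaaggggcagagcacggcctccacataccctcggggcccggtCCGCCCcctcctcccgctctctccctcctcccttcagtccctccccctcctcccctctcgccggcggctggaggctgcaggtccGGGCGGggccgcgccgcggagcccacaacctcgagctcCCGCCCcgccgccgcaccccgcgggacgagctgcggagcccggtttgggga
Chrnb2: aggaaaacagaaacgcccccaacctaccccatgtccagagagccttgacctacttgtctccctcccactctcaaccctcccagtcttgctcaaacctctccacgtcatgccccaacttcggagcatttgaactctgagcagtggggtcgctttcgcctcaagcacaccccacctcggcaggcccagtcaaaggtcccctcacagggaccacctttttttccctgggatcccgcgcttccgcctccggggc

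The windows differed in base composition as well as in matches. The Grm6 window held 4 CpG pairs and a GC content of 47.6%, with a SOX core on the opposite strand 178 bases before the start. The Chrna9 window held 5 CpG pairs and a GC content of 50%, with a POU octamer core on the opposite strand 228 bases before the start. The Chrna4 window was the richest of the 4 in CpG, with 24 pairs, a GC content of 74.4%, and GC boxes 173, 89 and 51 bases before the start. The Chrnb2 window held 10 CpG pairs, a GC content of 59.6% and no match to the letters searched. Of the 67 windows found for 57 of the receptor genes, 4 held the POU core (5.97%), 4 the SOX core (5.97%), 30 the GC box (44.8%) and 1 the left REST motif (1.49%). Over 32851 RefSeq windows of the same length the shares were 4.12%, 16.5%, 32.7% and 0.301% in the same order. No motif overlapped another in the printed windows, and a match describes letters and not a bound site. Across the receptor genes, the median number of CpG pairs per window was 12.5 for genes higher in NPC2 than in EpiSC (14 windows), 9 for lower genes (7 windows), 8.5 for tested genes without a call (12 windows) and 7.5 for genes too dim to test (34 windows), beside 6 over all windows. These are descriptions with wide ranges: the higher genes ran from 0 to 42 pairs and the lower genes from 1 to 41.

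Between 58.2% and 61.1% of the 59305 spots of an array that were not controls were well above background, and 0 were saturated. Intensities are given on a linear scale after each array was scaled to the same 75th percentile, 360.7, and on that scale the dimmest spot well above background lay between 8.03 and 9.67. A level belongs to its probe, so levels of different genes are not set against each other. Marker genes of both states were checked against the labels: all 8 neural plate markers were higher in NPC2 than in EpiSC, with Sox1 up 52.7-fold, and 6 of 8 EpiSC markers were lower, with Utf1 down 21.2-fold. The other 2 EpiSC markers, Nanog and Otx2, went the opposite way and were called higher in NPC2, by 0.82 and 0.77 on the log2 scale. The summed intensity of the neural plate markers was 5879 to 6098 in EpiSC, 9610 to 9739 in NPC1 and 19300 to 19910 in NPC2. That of the EpiSC markers was 265700 to 266600, 168900 to 170100 and 70310 to 71120 in the same order. Each such sum, here and below, is weighted toward the brightest probes of its list.

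Many receptor genes were too dim to compare. A gene was tested when 1 of its probes stood well above background in both cultures of some group, which 41 of the 78 did (52.6%), against 73.5% of all genes named in this way. On both arrays of a group, 33 receptor genes (42.3%) were above background in EpiSC, 35 (44.9%) in NPC1 and 38 (48.7%) in NPC2, while for all genes these shares were 70.2%, 70.9% and 70.8%. Of the 41, 28 were above background on all 6 arrays and 13 were not, and a gene of the second kind could pass only through the group where it was bright.

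The dim genes were spread unevenly over the classes. Tested were 12 of 16 ionotropic glutamate, 5 of 8 metabotropic glutamate, 8 of 16 GABA-A, both GABA-B, 9 of 13 nicotinic, 2 of 5 muscarinic, 0 of 4 glycine and 3 of 14 serotonin receptor genes. Above background on no array were 31 genes. They included the AMPA subunits Gria1 and Gria2, the kainate subunit Grik1, the NMDA subunit Grin2d and the metabotropic Grm3, Grm7 and Grm8. The GABA-A subunits Gabra2, Gabra6, Gabrb1, Gabrg1 and Gabrr3 were also among them, as were the nicotinic Chrna3, Chrna10 and Chrnb3, the muscarinic Chrm1, Chrm2 and Chrm5, and the glycine receptor genes Glra2, Glra3 and Glra4. The serotonin receptor genes Htr1a, Htr1b, Htr1d, Htr1f, Htr2c, Htr3b, Htr4, Htr5a and Htr6 were dim as well. A further 6 genes, among them Chrna1, Gabra4, Glra1, Htr2a and Htr5b, were above background on 1 array each. A dim probe bounds the level from above and does not show that the RNA is absent.

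**Figure D1:**
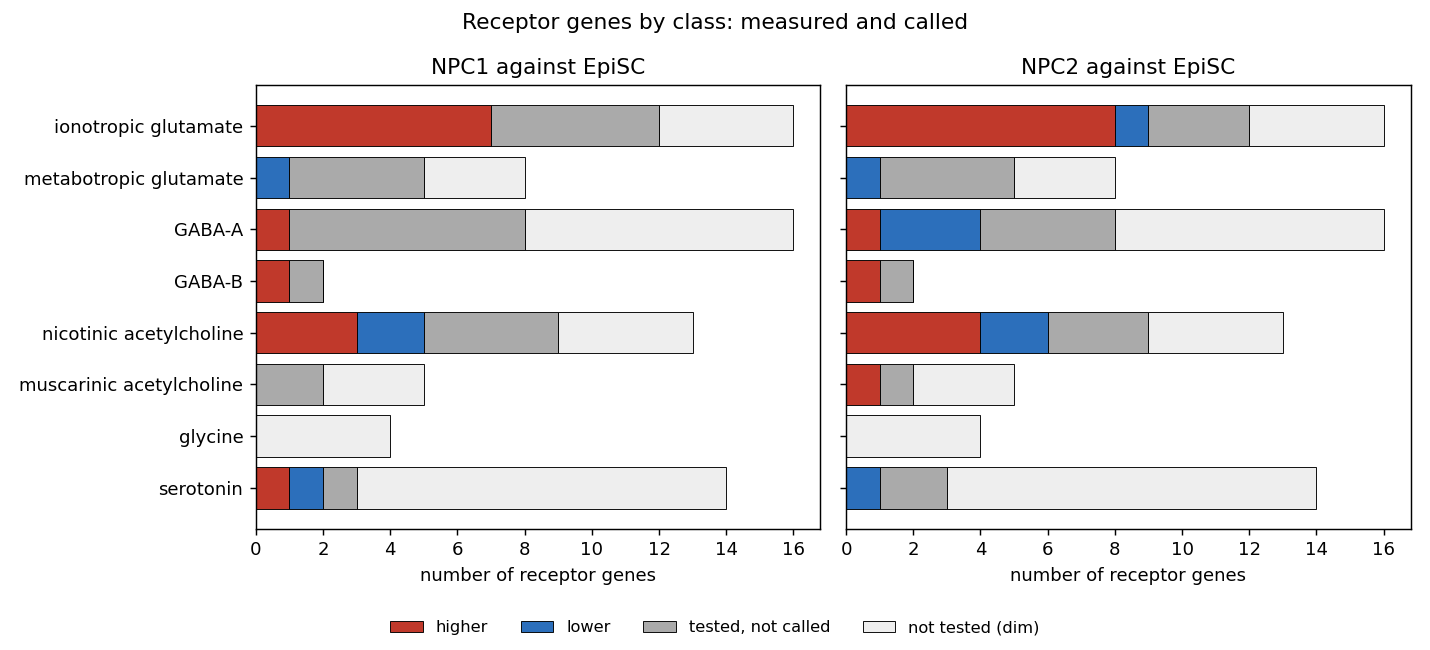
Number of receptor genes (horizontal axis) in each class, split into genes called higher, called lower, tested without a call, and too dim to test, for NPC1 against EpiSC (left) and NPC2 against EpiSC (right). Higher calls lie mostly among ionotropic glutamate and nicotinic genes (8 of 12 and 4 of 9 tested in NPC2, where 28.3% of all genes rose). These are also the classes with the most tested genes. Their rises include Grin1, Grin2c, Grin3a, Grin3b, Chrna4 and Chrnb2, which were not above background on both EpiSC arrays. Those genes passed the filter only through the neural plate condition, so the class shares do not compare with that of all genes. Most serotonin receptor genes (11 of 14) and all 4 glycine receptor genes were too dim to test.

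The comparison of NPC1 with EpiSC asks which receptor genes had changed after 1 day in the neural plate condition, and that of NPC2 with EpiSC asks the same after 2 days. Both use the same EpiSC arrays, so their results are not independent of each other. In NPC1, 13 of the 41 tested genes rose and 4 fell by limma at an adjusted p under 0.05, and 7 rises and 3 falls were at least 2-fold. That is 41.5% called, against 50.3% of all 14772 genes tested, of which 21.3% rose and 29% fell. In NPC2, 15 rose and 8 fell, 10 and 5 of them by a fitted change of at least 2-fold. That is 56.1% called, against 69% of all genes, of which 28.3% rose and 40.7% fell. The 2-fold counts of both comparisons use fitted changes, in which signals under background enter at their own value. Of the 10 rises in NPC2, those of Chrm3 and Grin3a, dim in EpiSC, are bounded only at 1.55-fold and 1.83-fold. The median log2 change of the tested receptor genes was -0.01 in NPC1 and 0.14 in NPC2, beside -0.05 and -0.10 over all genes. Among the 28 genes above background on all 6 arrays, 9 rose and 2 fell in NPC1 (32.1% and 7.14%). Of all 13546 genes above background on all 6 arrays, 21.1% rose and 30% fell there. In NPC2, 8 of the 28 rose and 5 fell (28.6% and 17.9%), against 27.6% and 41.7% of the 13546. The share of rises in NPC2 was thus close to that of all such genes.

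Comparing NPC2 with NPC1 asks what changed during the second day. There 10 receptor genes rose and 7 fell, or 41.5% called, against 47.5% of all genes, of which 20.8% rose and 26.6% fell. The median log2 change was 0.21, beside -0.04 over all genes. In all, 26 receptor genes were called in at least 1 comparison, 11 in all 3 and 15 in none. How many genes count as higher depends on the scaling: of all called genes, lower calls made up 57.7% for NPC1 and 59% for NPC2 against EpiSC, and 56.1% between the days, with the scaling used here, and 37.9%, 38.8% and 41% in the authors' deposited value table. Of the 57 calls on receptor genes, 25 held under every alternative tried. A further 17 held under every alternative but the fit restricted to probes above background on all 6 arrays, which could not test those genes, and 15 were lost under at least 1 alternative.

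**Figure D2:**
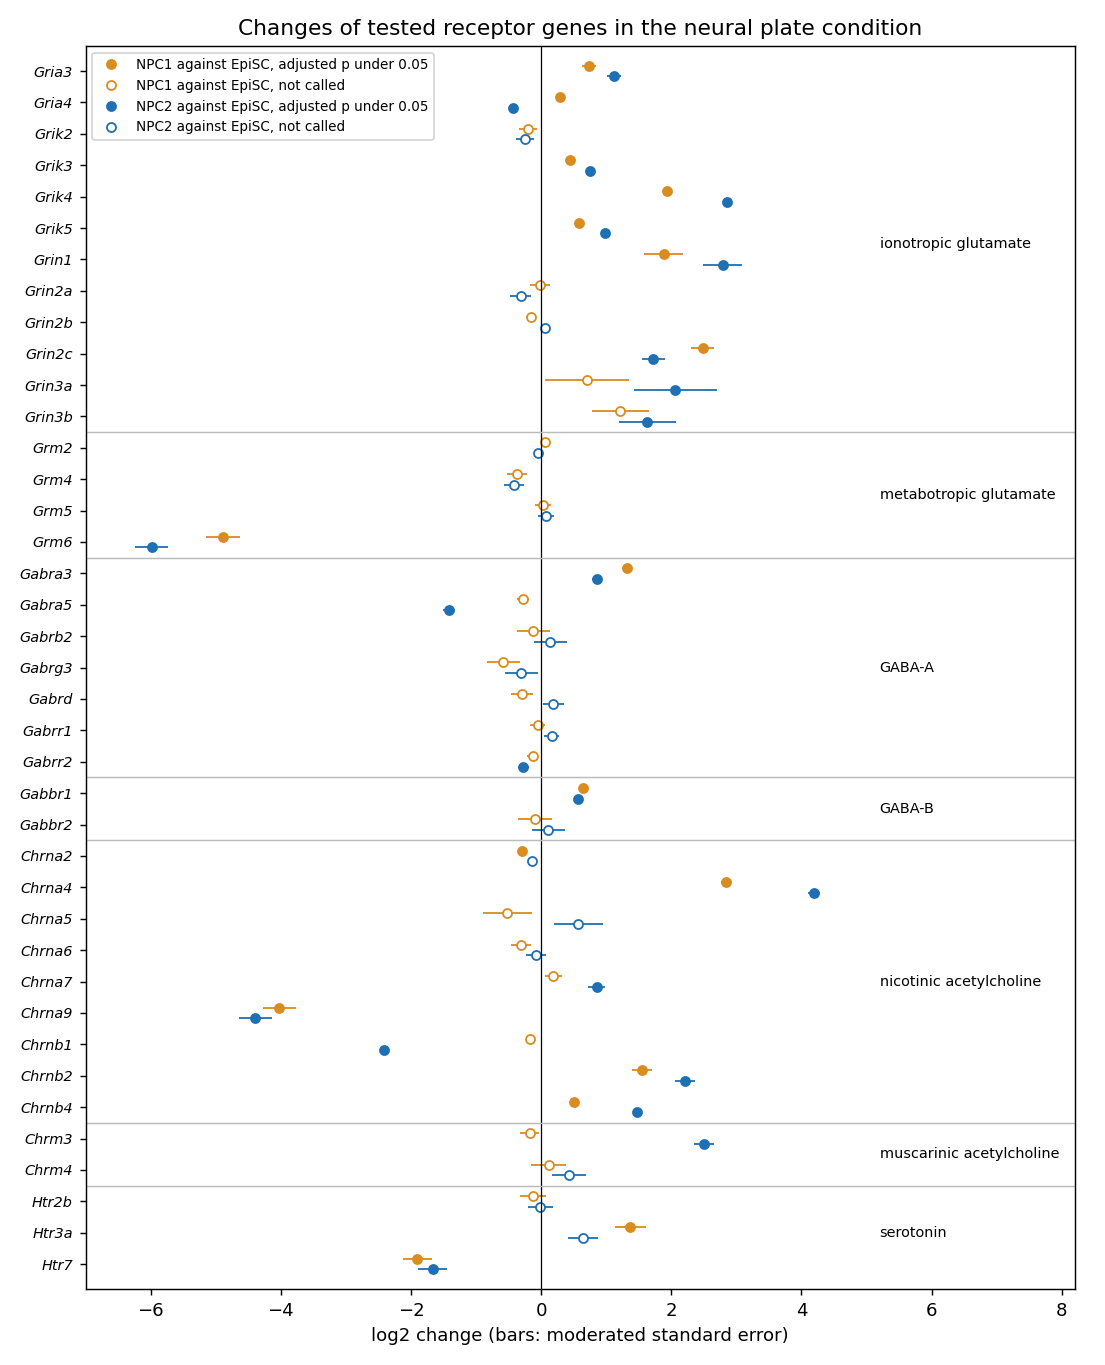
Log2 change of tested receptor genes against EpiSC (horizontal axis), with the moderated standard error as a bar, grouped by receptor class. Filled points passed an adjusted p of 0.05, and genes that were dim in a group are drawn at their fitted change, not at their bound. Grm6 and Chrna9 stand far to the left at -5.99 and -4.40 in NPC2, and Chrna4 far to the right at 4.19.

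Grm6 encodes the metabotropic glutamate receptor with which ON bipolar cells of the retina sense photoreceptor signals, coupled to the G protein Go. Its probe read 416 and 424 in EpiSC, 10.7 and 18.6 in NPC1, and 6.77 and 6.48 in NPC2, where it was no longer above background. The EpiSC arrays were both far above all arrays of the neural plate condition, and the NPC1 arrays lay above those of NPC2. Grm6 thus fell 29.7-fold in NPC1 (log2 change -4.89 ± 0.26 SE, adjusted p = 0.000322) and at least 48.3-fold in NPC2 (adjusted p = 5.11e-05). The bound sets the EpiSC mean against the higher of the probe's own signal and the dimmest signal above background on each NPC2 array. Here and below, an adjusted p beside a bound belongs to the fitted change, which uses signals under background. The bound itself was not tested. The further fall from day 1 to day 2 was at least 1.63-fold (adjusted p = 0.0228), and the call was lost without either NPC2 array and without the filter on dim probes.

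The other metabotropic glutamate receptor genes had no call in any comparison. Grm5, which signals through Gq, read 83.8 to 103 over the 6 arrays. Grm2 and Grm4, which signal through Gi, read 222 to 248 and 11.4 to 18.4. The fall in this class was therefore that of Grm6, as 1 of 5 tested members, in each comparison. Of 9 marker genes of ON bipolar cells, 6 were tested. In NPC2, 1 rose and 1 fell (16.7% each, against 28.3% and 40.7% of all genes). The summed intensity of these markers was 3269 to 3611 in EpiSC, 2468 to 2881 in NPC1 and 2896 to 3188 in NPC2. Most of each sum was Cabp5, which had no call and read 2975 and 2632 in EpiSC and 2611 and 2347 in NPC2. Vsx1, which marks bipolar cells, was above background on no array, Isl1 fell 4.59-fold and Prkca rose 1.88-fold in NPC2. The part of other cell types in the Grm6 signal was not tested.

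Of the partner genes through which metabotropic receptors signal, 18 of 22 on the array were tested. In NPC2, 6 rose and 6 fell (33.3% each, against 28.3% and 40.7% of all genes), with a median log2 change of -0.01. Gnao1, which encodes the alpha subunit of Go, read 24.7 and 21.9 in EpiSC, 101 and 93.2 in NPC1, and 306 and 314 in NPC2. It rose 13.3-fold in NPC2 (adjusted p = 1.14e-05), while Grm6 fell. Kcnj3, a potassium channel gene opened by G proteins, fell 3.83-fold (adjusted p = 0.000463). Plcb1, a phospholipase C gene downstream of Gq, rose 3.24-fold (adjusted p = 0.000249).

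Of the ionotropic glutamate families, 3 of 4 tested kainate, 4 of 6 NMDA and 1 of 2 AMPA subunit genes rose in NPC2. Over all genes tested 28.3% rose, and the difference between the families was not tested. The NMDA genes that rose, Grin1, Grin2c, Grin3a and Grin3b, were not above background on both EpiSC arrays. They passed the filter only through the neural plate condition, so the NMDA share does not compare with that of all genes. Grin2a and Grin2b, above background on all 6 arrays, had no call against EpiSC. Grik4 encodes a high-affinity subunit that needs a low-affinity partner such as Grik2 or Grik3. Its probe read 53.0 and 50.2 in EpiSC, 201 and 192 in NPC1, and 373 and 375 in NPC2. The groups did not overlap, and the duplicates lay close together in each. Grik4 rose 3.81-fold in NPC1 (log2 change 1.93 ± 0.052, adjusted p = 8.35e-05) and 7.26-fold in NPC2 (2.86 ± 0.052, adjusted p = 9.08e-06), and by 0.93 on the log2 scale between the days (adjusted p = 0.00026).

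Grik5, the other high-affinity subunit, read 817 and 835 in EpiSC, 1229 and 1244 in NPC1, and 1636 and 1632 in NPC2. It rose by 0.58 in NPC1 and by 0.98 in NPC2 on the log2 scale (adjusted p = 0.000716 and 5.09e-05). Grik3, a low-affinity subunit, rose by 0.75 in NPC2 (adjusted p = 0.000425), and its reading of 507 and 482 in EpiSC stood beside 643 and 705 in NPC1 and 821 and 848 in NPC2. Its rise in NPC1, 0.45 on the log2 scale, was lost when its 2 probes were averaged (adjusted p = 0.0847). Grik2, the other low-affinity subunit with a signal, read 13.3 to 19.1 with no call. All 3 called kainate genes also rose between NPC1 and NPC2, Grik5 by 0.40 and Grik3 by 0.31 on the log2 scale, and the call on Grik3 was lost under 3 alternatives.

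NMDA receptors need the subunit of Grin1 in every channel. Grin1 read 9.63 and 5.17 in EpiSC, 26.9 and 25.2 in NPC1, and 53.2 and 44.8 in NPC2. No EpiSC array was above background, and all 4 arrays of the neural plate condition were. Grin1 rose at least 2.70-fold in NPC1 (adjusted p = 0.00668) and at least 5.06-fold in NPC2 (adjusted p = 0.000939). A second Grin1 probe was above background on 1 array alone.

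The regulatory NMDA subunits did not move together. Grin2c, known from adult cerebellar granule cells, read 7.62 and 6.29 in EpiSC, 34.2 and 43.9 in NPC1, and 20.7 and 25.3 in NPC2. It was highest on the NPC1 arrays: it rose at least 4.14-fold in NPC1 (adjusted p = 0.000668) and at least 2.44-fold in NPC2 (adjusted p = 0.000788), and it was lower in NPC2 than in NPC1 by a log2 change of -0.76 (adjusted p = 0.0215). Leaving out NPC1 culture B or NPC2 culture A ended the last call. Grin2a and Grin2b, the main partners of Grin1 in the forebrain, read 10.7 to 16.2 and 12.3 to 15.4. Neither was called against EpiSC, and Grin2b was called higher in NPC2 than in NPC1 by a log2 change of 0.22 (adjusted p = 0.0496), a call lost under 9 alternatives.

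The Grin3 subunits, which like that of Grin1 bind glycine, lay near the limit of the array. Grin3a read 6.63 and 2.54 in EpiSC, 4.05 and 11.1 in NPC1, and 16.6 and 17.7 in NPC2. Only 1 NPC1 array and both NPC2 arrays were above background, and the rise in NPC2 was at least 1.83-fold (adjusted p = 0.0372, 0.135 at most over the alternatives, 6 of 13 of which ended the call). Its fitted log2 change of 2.06 was 2.76 without EpiSC A and 1.37 without EpiSC B. Grin3b read 6.36 and 15.4 in EpiSC, 20.5 and 25.7 in NPC1, and 34.5 and 27.3 in NPC2. EpiSC A was not above background and EpiSC B was. The fitted rise in NPC2 was 1.63 ± 0.44 on the log2 scale (adjusted p = 0.0228); it was 0.995 without EpiSC A and 2.27 without EpiSC B, and leaving out either NPC2 array ended the call.

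Both tested AMPA subunit genes were called, in patterns of their own. Gria3 read 32.9 and 30.2 in EpiSC, 53.5 and 51.8 in NPC1, and 62.0 and 75.7 in NPC2, and it rose 1.67-fold in NPC1 (adjusted p = 0.00517) and 2.17-fold in NPC2 (adjusted p = 0.000662). A second Gria3 probe, above background on all 6 arrays, gave smaller log2 changes of 0.35 in NPC1 and 0.39 in NPC2. The further rise between the days, 0.38 on the log2 scale, was lost under 9 alternatives. Gria4 read 339 and 342 in EpiSC, 436 and 402 in NPC1, and 257 and 246 in NPC2. It rose by 0.30 in NPC1 (adjusted p = 0.0128, lost without either EpiSC array) and was lower in NPC2 by a log2 change of -0.44 against EpiSC (adjusted p = 0.00203) and of -0.73 against NPC1 (adjusted p = 0.000707). The second Gria4 probe had the same signs, with log2 changes of 0.37, -0.62 and -0.99.

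**Figure D3:**
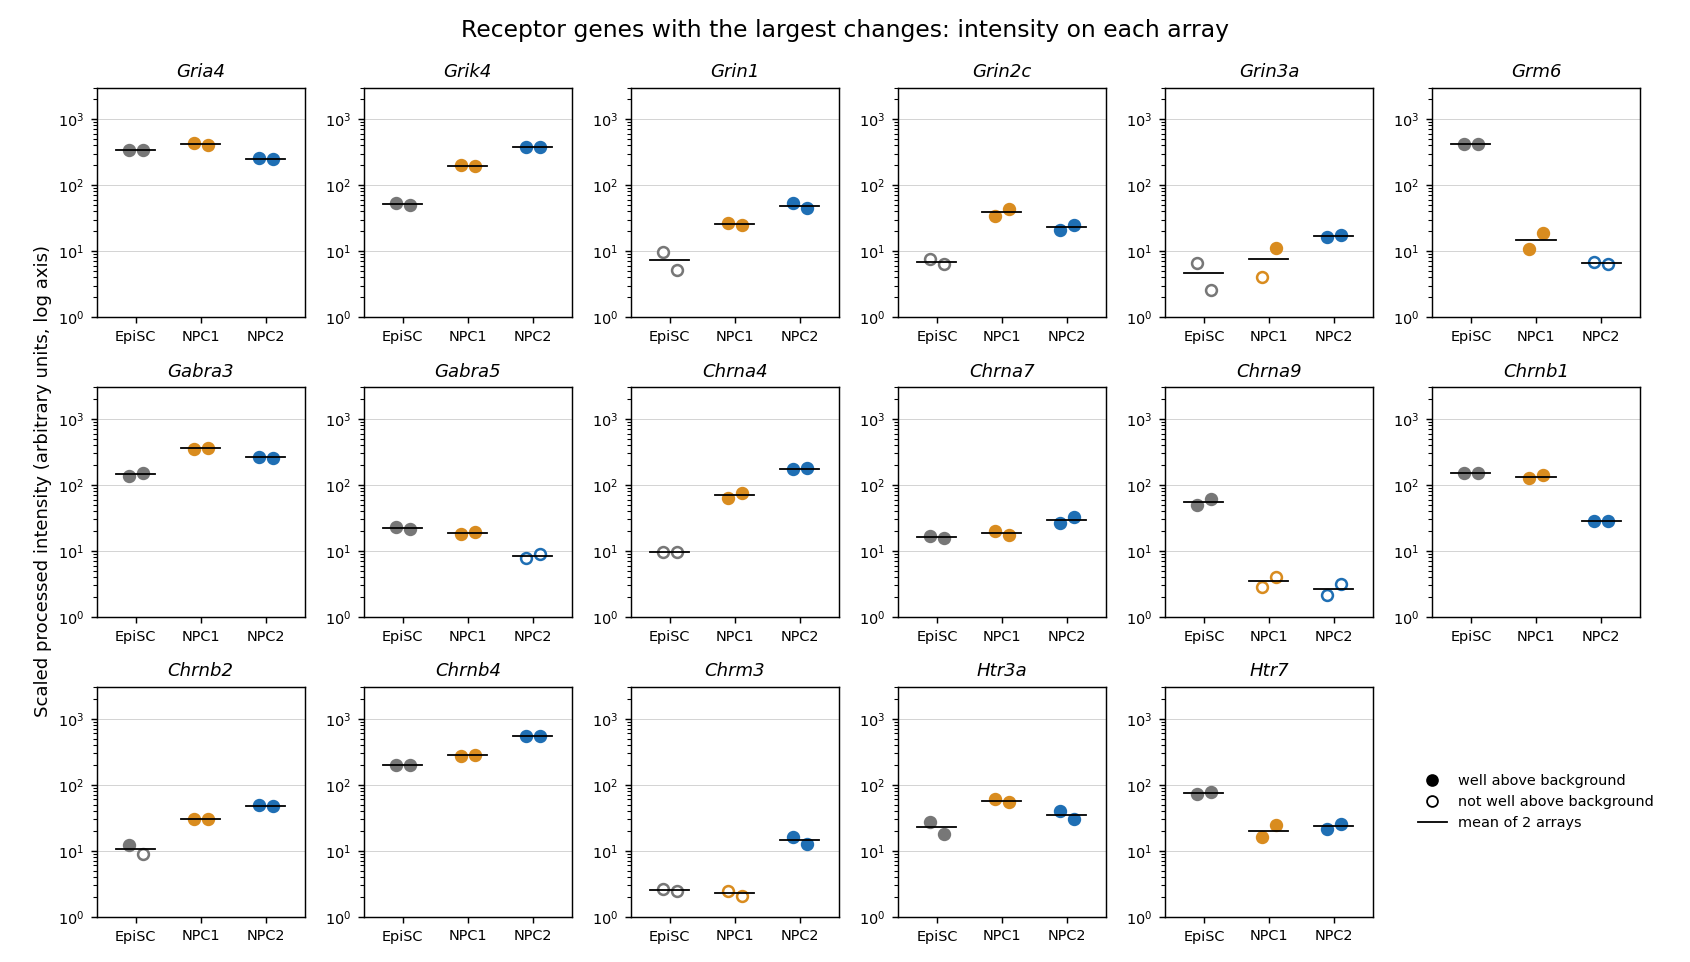
Scaled processed intensity (vertical log axis) on each array for the 17 receptor genes with the largest called changes, in EpiSC, NPC1 and NPC2. Each point is an array, open points were not well above background, and the line is the mean of 2 arrays. Grm6, Chrna9 and Chrnb1 are lower in NPC2 than in EpiSC, Chrna4 and Grik4 are higher at each step, and Gabra3, Grin2c and Htr3a are highest in NPC1.

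Genes that help glutamate receptors to the surface and hold them at synapses were looked at beside them. Of 26, 22 were tested. In NPC1, 9 rose and 4 fell (40.9% and 18.2%, against 21.3% and 29% of all genes). In NPC2, 12 rose and 4 fell (54.5% and 18.2%, against 28.3% and 40.7%). The median log2 change in NPC2 was 0.45, beside -0.10 over all genes. Cacng4, which encodes a TARP subunit of AMPA receptors, rose at least 3.36-fold in NPC2 (adjusted p = 0.00069), and Neto1, an auxiliary subunit of kainate receptors, rose at least 2.65-fold (adjusted p = 0.000339). Grip2, a scaffold protein that binds AMPA receptors, rose at least 1.74-fold (adjusted p = 0.00792). These 3 had the largest fitted changes, but each was dim in EpiSC, and the scaffold gene Shank2, chosen here after its value was seen, had a higher bound of at least 3.91-fold (adjusted p = 0.000441). Cacng4, Neto1, Grip2 and Shank2 count among the rises but passed the filter only through the neural plate condition. Of 8 tested genes that release, take up or make glutamate, 3 rose and 4 fell in NPC2 (37.5% and 50%, against 28.3% and 40.7% of all genes). The transporter gene Slc1a2 rose at least 2.24-fold (adjusted p = 0.000265), its relative Slc1a3 fell by 0.96 on the log2 scale (adjusted p = 0.000277), and Glul, which encodes glutamine synthetase, rose 1.94-fold (adjusted p = 0.000181).

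Nicotinic receptors of the brain are built from alpha and beta subunits, and those of muscle from Chrna1, Chrnb1 and the delta, epsilon or gamma subunits. Chrna4, the main brain alpha subunit, read 9.75 and 9.50 in EpiSC, 63.9 and 74.9 in NPC1, and 172 and 180 in NPC2. No EpiSC array was above background, and the 3 groups did not overlap. Chrna4 rose at least 7.13-fold in NPC1 (adjusted p = 0.000103) and at least 18.1-fold in NPC2 (adjusted p = 1.09e-05), and 2.54-fold between the days (log2 change 1.34 ± 0.087, adjusted p = 0.000379).

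Its partner subunit gene moved the same way. Chrnb2 read 12.2 and 8.93 in EpiSC, 30.6 and 30.3 in NPC1, and 48.7 and 47.9 in NPC2, and 1 EpiSC array was above background. It rose 2.92-fold in NPC1 (log2 change 1.55 ± 0.15, adjusted p = 0.00158) and 4.62-fold in NPC2 (2.21 ± 0.15, adjusted p = 0.000201). Between the days it rose by 0.66 (adjusted p = 0.0201), a call that ended when any of the 4 arrays compared was left out.

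Chrnb4, a beta subunit of autonomic ganglia, read 198 and 196 in EpiSC, 275 and 283 in NPC1, and 547 and 553 in NPC2. It rose 1.42-fold in NPC1 (adjusted p = 0.00115), 2.79-fold in NPC2 (adjusted p = 1.86e-05) and 1.97-fold between the days (adjusted p = 0.000145). Chrna3, its usual alpha partner in ganglia, was above background on no array, and Chrna5, an accessory subunit, read 5.93 to 21.0 and had no call. Chrna7, which forms channels from a single kind of subunit, read 16.8 and 15.7 in EpiSC, 19.7 and 17.3 in NPC1, and 26.3 and 32.5 in NPC2. It rose 1.80-fold in NPC2 (log2 change 0.85 ± 0.13, adjusted p = 0.00292), with no call in NPC1 (log2 change 0.19, adjusted p = 0.275). Its rise between the days, 0.67 on the log2 scale (adjusted p = 0.0115), was lost with normexp background correction and without NPC1 culture B.

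The larger falls among nicotinic genes were those of Chrna9 and Chrnb1. Chrna9, known from hair cells of the inner ear, read 49.8 and 61.2 in EpiSC, 2.86 and 4.05 in NPC1, and 2.19 and 3.15 in NPC2. It was above background in EpiSC alone, and it fell at least 6.31-fold in NPC1 (adjusted p = 0.000482) and at least 6.35-fold in NPC2 (adjusted p = 0.00012). Chrna10, with which it forms the hair cell receptor, was above background on no array.

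Chrnb1, the beta subunit of the muscle receptor, fell on the second day. It read 150 and 151 in EpiSC, 129 and 140 in NPC1, and 28.6 and 28.0 in NPC2. All 4 arrays of EpiSC and NPC1 lay well above those of NPC2. The fall in NPC2 was 5.33-fold against EpiSC (log2 change -2.41 ± 0.057, adjusted p = 1.23e-05) and 4.74-fold against NPC1 (-2.24 ± 0.057, adjusted p = 5.86e-05), and NPC1 had no call against EpiSC (-0.17, adjusted p = 0.0605).

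The rest of the muscle receptor was dim. Chrna1 was above background on 1 array, and of the delta, epsilon and gamma subunit genes none could be tested. Of 9 skeletal muscle markers 5 were tested, of which 2 rose and 1 fell in NPC2 (40% and 20%, against 28.3% and 40.7% of all genes). Acta1 rose 4.18-fold, Des rose 1.33-fold and Tnnt1 fell 1.86-fold. Myod1, Myf5 and Myog, the regulators that define muscle, were above background on no array. The summed intensity of the markers was 3890 to 4364 in EpiSC, 5481 to 5793 in NPC1 and 2805 to 2814 in NPC2. Most of each sum was Tnnt1, which read 3468 and 3910 in EpiSC, 4764 and 4465 in NPC1, and 1982 and 1986 in NPC2. Of the remaining nicotinic genes, Chrna2 was lower in NPC1 by a log2 change of -0.29 (adjusted p = 0.0148), a call lost under 4 alternatives, and Chrna6 read 11.7 to 17 with no call.

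Of the 2 muscarinic genes tested, Chrm3, which signals through Gq, rose on the second day. It read 2.65 and 2.48 in EpiSC, 2.48 and 2.07 in NPC1, and 16.4 and 12.8 in NPC2, and only the NPC2 arrays were above background. The rise was at least 1.55-fold against EpiSC (adjusted p = 0.000134) and at least 1.66-fold against NPC1 (adjusted p = 0.00026). These p-values belong to the fitted log2 changes of 2.50 and 2.68, not to the bounds. Chrm4, which signals through Gi, read 22.1 to 40.3 with no call.

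Genes that make, move and chaperone acetylcholine and its receptors showed no common direction. Of 11 tested, 5 rose and 4 fell in NPC1 (45.5% and 36.4%, against 21.3% and 29% of all genes). In NPC2, 4 rose and 5 fell (36.4% and 45.5%, against 28.3% and 40.7%), with a median log2 change of -0.22. Lynx1, which encodes a toxin-like protein that binds nicotinic receptors, fell 4.35-fold (adjusted p = 8.31e-05). The choline transporter gene Slc5a7 fell 3.57-fold (adjusted p = 5.13e-05), and Ly6e, of the same protein family as Lynx1, fell 2.28-fold (adjusted p = 5.09e-05).

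GABA-A receptors usually join alpha, beta and gamma or delta subunits. Gabra3, an alpha subunit common in the embryonic brain, read 137 and 153 in EpiSC, 354 and 367 in NPC1, and 267 and 256 in NPC2. The NPC1 arrays were the highest and the groups did not overlap: Gabra3 rose 2.49-fold in NPC1 (log2 change 1.32 ± 0.069, adjusted p = 0.000315) and 1.81-fold in NPC2 (adjusted p = 0.000349), and was lower in NPC2 than in NPC1 by a log2 change of -0.46 (adjusted p = 0.00527). Gabra5, an alpha subunit of receptors outside synapses, read 23.4 and 21.4 in EpiSC, 17.9 and 19.1 in NPC1, and 7.86 and 9.04 in NPC2. It was dim in NPC2 alone, with a fall of at least 2.58-fold against EpiSC (adjusted p = 0.000168) and of at least 2.13-fold against NPC1 (adjusted p = 0.000716).

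The other GABA-A subunit genes moved less. Gabrr2, a rho subunit known from the retina, read 1816 and 1630 in EpiSC, 1491 and 1654 in NPC1, and 1424 and 1426 in NPC2, with a log2 change in NPC2 of -0.27 (adjusted p = 0.0314) that was lost under 7 alternatives. Gabrb2 read 14.1 to 23.7 over the 6 arrays, Gabrg3 8.21 to 17.7, Gabrd 7.44 to 13.2 and Gabrr1 47.5 to 62.7, each with no call. Gabrg3 was the only gamma subunit with a tested signal.

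GABA-B receptors need both of their subunits. Gabbr1, which binds GABA, read 270 and 266 in EpiSC, 431 and 410 in NPC1, and 403 and 394 in NPC2. It rose by 0.65 in NPC1 and by 0.57 in NPC2 on the log2 scale (adjusted p = 0.000777 and 0.000423), and its 2 other probes had log2 changes of 0.61 and 0.68 in NPC1. Gabbr2, which couples to the G protein, read 9.46 to 15.7 with no call.

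Among the 14 tested genes that make, transport or anchor GABA and glycine signalling, 8 rose and 4 fell in NPC2, with a median log2 change of 0.76. These are 57.1% and 28.6%, against 28.3% and 40.7% of all genes, whose median was -0.10. The rises include Gad1 and Gad2, which were dim in EpiSC and passed the filter only through the neural plate condition. Gad2, which encodes an enzyme that makes GABA, read 7.55 and 5.56 in EpiSC, 27.0 and 72.2 in NPC1, and 114 and 99.9 in NPC2. The NPC1 duplicates were far apart, and the rises were at least 4.71-fold in NPC1 (adjusted p = 0.00854) and at least 11.4-fold in NPC2 (adjusted p = 0.00132). Gad1, its relative, rose at least 3.43-fold in NPC2 (adjusted p = 0.000506). Slc32a1, the vesicular transporter of GABA and glycine, read 54.9 and 48.0 in EpiSC, 32.6 and 34.9 in NPC1, and 470 and 688 in NPC2, a rise of 11.1-fold in NPC2 (adjusted p = 0.000107) with no call in NPC1 (adjusted p = 0.0517). Of 9 receptor subunit genes outside the families taken here, Glrb alone was tested; this beta subunit of the glycine receptor rose at least 2.27-fold in NPC2 (adjusted p = 3.61e-05), while no alpha subunit gene of that receptor could be tested.

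**Figure D4:**
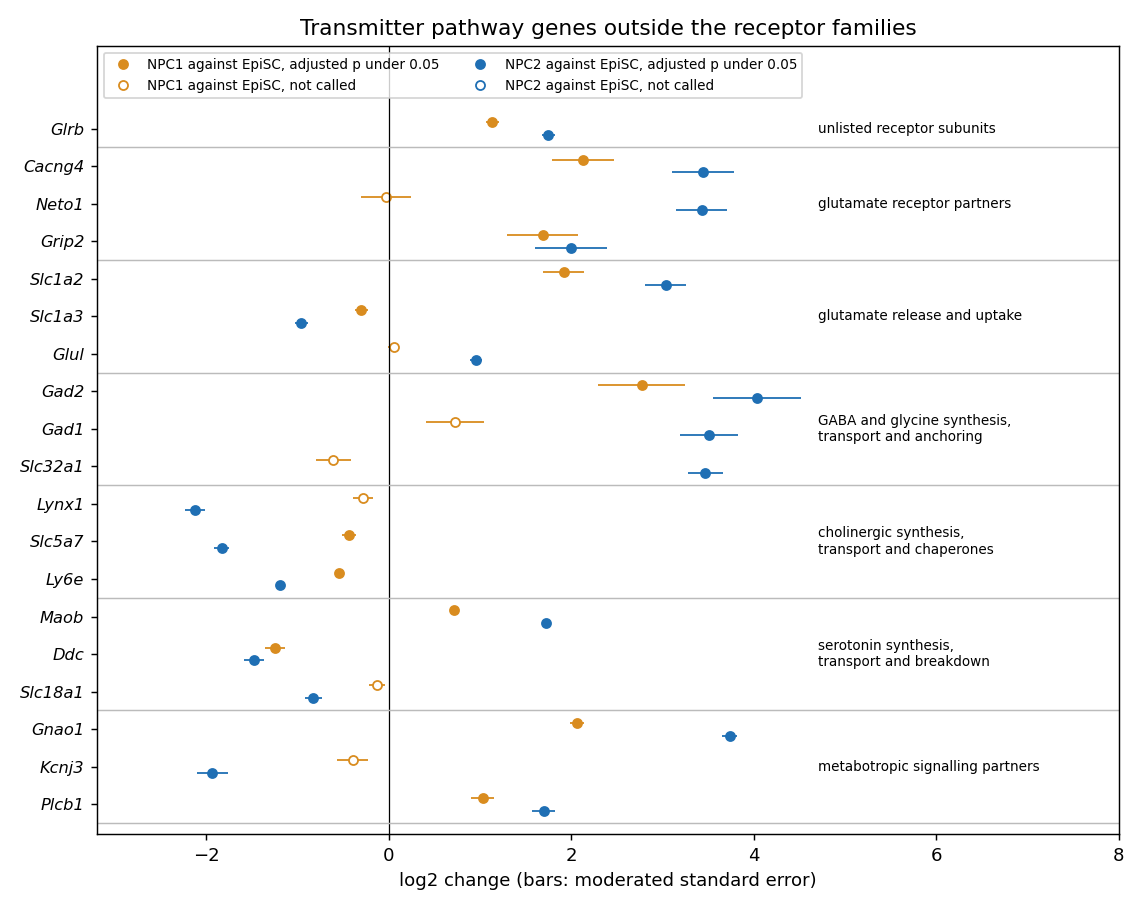
Fitted log2 change against EpiSC (horizontal axis), with the moderated standard error as a bar, of up to 3 called genes with the largest change in NPC2 from each list of transmitter pathway genes that are not receptors of the families taken. Filled points passed an adjusted p of 0.05, and genes that were dim in a group (Gad1 and Gad2 in EpiSC, for example) are drawn at their fitted change, not at their bound. Slc32a1 lies at 3.47 in NPC2. The 3 cholinergic genes shown all lie below 0, while of the 11 tested in that list 4 rose and 5 fell in NPC2.

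Serotonin receptor genes were mostly too dim to test. Htr7, which raises cyclic AMP through Gs, read 71.9 and 76.6 in EpiSC, 16.0 and 24.6 in NPC1, and 21.1 and 25.8 in NPC2. The EpiSC arrays stood above all others, while those of NPC1 and NPC2 overlapped. Htr7 fell 3.74-fold in NPC1 (log2 change -1.90 ± 0.22, adjusted p = 0.00264) and 3.18-fold in NPC2 (-1.67 ± 0.22, adjusted p = 0.00201), with no call between the days (0.24, adjusted p = 0.427).

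Htr3a, the channel-forming serotonin receptor subunit, was highest after 1 day. It read 27.2 and 18.2 in EpiSC, 61.1 and 54.3 in NPC1, and 40.1 and 30.1 in NPC2. It rose 2.59-fold in NPC1 (log2 change 1.37 ± 0.24, adjusted p = 0.00829) and had no call in NPC2 against EpiSC (0.64, adjusted p = 0.0604) or against NPC1 (-0.73, adjusted p = 0.0573). Htr2b, which signals through Gq, read 10.4 to 15.4 with no call. Of 6 tested genes of serotonin synthesis, transport and breakdown, 1 rose and 4 fell in NPC2 (16.7% and 66.7%, against 28.3% and 40.7% of all genes). Maob, a monoamine oxidase gene, rose 3.31-fold (adjusted p = 1.4e-05), Ddc, an enzyme gene of monoamine synthesis, fell 2.79-fold (adjusted p = 0.000253), and the vesicular transporter gene Slc18a1 fell by 0.83 on the log2 scale (adjusted p = 0.000958).

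The 15 receptor genes without a call in any comparison had log2 changes between -0.58 and 1.09, and their lowest adjusted p was 0.0647. The changes with the largest standard errors belonged to probes near background, such as Grin3a (SE 0.64) and Grin3b (SE 0.44), against a median SE of 0.07 over all genes. Only 2 arrays per group limit the precision of every value.

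Markers of other cell types moved in both directions beside the receptor genes. Over all genes tested, 28.3% rose and 40.7% fell in NPC2. Of 13 neuron markers, all tested, 6 rose and 4 fell in NPC2. Rbfox3 rose 11.1-fold and Stmn3 5.62-fold, while Nefl fell 11.6-fold. The summed intensity of the 13 was 38290 to 38890 in EpiSC, 25070 to 26870 in NPC1 and 20840 to 21770 in NPC2. Nefl alone read 21670 and 22600 in EpiSC, 3019 and 2896 in NPC1, and 2058 and 1764 in NPC2. The fall of the sum therefore rests on that probe. Of 9 astrocyte and oligodendrocyte markers 6 were tested; 3 rose and 1 fell in NPC2, with Mbp up 3.18-fold and Aldh1l1 down 2.06-fold, and Olig1, Olig2 and S100b were above background on no array. Their summed intensity was 3280 to 3409 in EpiSC, 3939 to 4158 in NPC1 and 4199 to 4313 in NPC2. Of 9 fibroblast and feeder markers 8 were tested; 5 rose and 1 fell in NPC2, with Pdgfra up at least 11.5-fold and Twist2 down 2.81-fold, Lum was above background on no array, and the sums were 3015 to 3152, 3919 to 4053 and 4917 to 5166 in EpiSC, NPC1 and NPC2. The part of these cell types in the receptor changes was not tested.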

How the data were processed

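RNA from the 6 cultures was hybridised to Agilent 1-colour arrays (design 028005), on 1 slide and in 1 scan. Per the file headers, Feature Extraction 10.10.1.1 (protocol GE1_1010_Sep10) gave the deposited processed intensity, which is background-subtracted, and flags for signal well above background. A value table deposited by the authors gives this intensity times a constant per array, between 2.10 and 2.41, on a linear scale without centring; its medians were 52.5 and 51.3 (EpiSC), 61.8 and 59.6 (NPC1) and 65.3 and 64.3 (NPC2), and what set the constant is not stated in the labels or headers. All value columns matched a sample.

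Control and outlier spots were left out and the spots of a probe averaged. Symbols and promoter sequences came from RefSeq tables of assembly GRCm38.p6 (26762 of 28390 probes with an accession matched). The array's own grid is of build mm9. Each array's processed intensity was put on the log2 scale and its own 75th percentile subtracted. A gene was tested on the brightest of its probes that stood well above background in both cultures of some group. A single limma fit (3.58.1, R 4.3.3, two-sided) took all 6 arrays and 14772 genes, with Benjamini-Hochberg adjustment at 0.05; it had 3 residual and 1.9 prior degrees of freedom, and was tested on simulated data. Duplicates correlated at r = 0.9971 to 0.9975 across genes, which are not independent replicates.

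Tested receptor genes are named, except a few that are not reported here, with full statistics for the 10 largest called changes per comparison and for Grm6 and Chrna4, and, from every other list, the 3 called genes that moved most in NPC2 against EpiSC. Members, lists and motifs were chosen with earlier results of these data known. Alternatives were median and quantile scaling, normexp background correction with an offset of 50, the value table, stricter and no filters, the mean of a gene's probes, a replicate block and leaving out each array.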

Additional observations from a re-analysis of the deposited data

Results flagged for a closer look

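Grm4 has 2 probes that passed the filter on dim signals, and the dimmer was not used in the comparisons. It read 5.66 and 9.46 in EpiSC, 7.90 and 10.7 in NPC1, and 16.9 and 22.1 in NPC2, and it was well above background on the NPC2 arrays alone. Its log2 change in NPC2 against EpiSC was 1.4, opposite in sign to the -0.42 of the Grm4 probe used, which had no call. The difference between the probes was not tested.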

How the results depend on the processing

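Of 57 calls on receptor genes (17 in NPC1 against EpiSC, 23 in NPC2 against EpiSC and 17 in NPC2 against NPC1), 25 held under every alternative (8, 11 and 6), 17 held under all but the fit restricted to probes above background on all 6 arrays, which could not test them, and 15 were lost under at least 1. When only probes above background on all 6 arrays were fitted, receptor genes called numbered 11 in NPC1 against EpiSC (2 lower, against 4 in the full fit), and 15 in NPC2 against EpiSC (9 higher, against 15), since fewer genes were tested. Lower calls in NPC1 against EpiSC numbered 7 with median scaling and 7 with quantile normalization, which shift the median of all genes to -0.15 and -0.01. Lower calls in NPC2 against NPC1 ran from 4 to 8 over the fits that left out 1 array, lowest without NPC2 culture A, against 7 with all arrays. The log2 change of Grin2b, NPC2 minus NPC1, reversed to -0.0303 (0.22 with the scaling used) under normexp background correction, and the cause was not tested. That correction with its offset made 28 of the 57 called changes over 1.5 times smaller. The letters A and B do not pair the cultures by the labels, and the A minus B differences of the groups correlated at 0.00806, 0.00653 and -0.0449; with a replicate block, 13 receptor genes were higher and 5 lower in NPC1 against EpiSC, 15 and 7 in NPC2 against EpiSC, and 9 and 9 in NPC2 against NPC1. In the authors' value table the median log2 change of all genes in NPC2 against EpiSC was 0.13, where the scaling used gave -0.10, and 18 receptor genes were higher and 6 lower. Probes near background, such as those of Grin3a and Chrm3, limit fold changes to bounds.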

Other observations

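Some receptor probes were bright on a single array and dark on the others. A probe above background on 1 array and at least 5 times brighter there than on the next was found for 5 of the 106 receptor probes (4.72%) and for 183 of all 25918 probes named in the same way (0.706%). Only a probe that is dim on the other arrays can meet this rule. Receptor genes were more often dim, with 52.6% tested against 73.5% of all genes, so the shares are not over comparable probes. Chrna1, the alpha subunit of the muscle nicotinic receptor, read 64.5 on EpiSC A and at most 4.85 elsewhere. Gabra4, a GABA-A subunit gene, read 31.4 on NPC2 A and at most 2.53 elsewhere. The second Grin1 probe read 77.6 on NPC2 A and at most 6.93 elsewhere. None of these 3 probes entered a test, because no group had both arrays above background.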
